A study of Homo sapiens with 4 samples.

Results

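Integrins are cell-surface receptors made of an alpha and a beta chain that bind extracellular matrix outside the cell and the actin cytoskeleton, through talin and other adaptors, inside it. The alpha chain largely sets the ligand. The chains encoded by ITGA1, ITGA2, ITGA10 and ITGA11 each pair with beta-1 and bind collagen through an extra inserted (I) domain, whereas alpha-5 beta-1 and several alpha-V receptors read the RGD peptide motif of fibronectin, vitronectin and related proteins. The 10 genes described here were these 4 collagen-binding alpha chains together with 6 others: ITGA5, ITGAV, ITGB1, ITGB3, ITGB5 and ITGB8. They were taken by gene symbol from the 37450 features of the count table, and all 10 were found and tested. The human integrin family holds 26 chains, 18 alpha and 8 beta, so the members were 6 of the alpha and 4 of the beta chains.

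Messenger RNA was sequenced from 143B, a line of human osteosarcoma (bone tumour) cells, on day 2 after lipid transfection of siRNA. The control group (siNC, 2 libraries) received a siRNA with no target gene and is labelled wild type. The other group (siCBX3, 2 libraries) received siRNA against CBX3, the gene of the heterochromatin protein HP1-gamma, and is labelled CBX3 knockdown. Whether a group's libraries came from separate cultures is not stated. The p-values rest on the spread between these libraries, largely pooled over genes, and that spread may be technical. All cells are of a single line. The siRNAs were named by their target, and their sequences are not given here. The sample descriptions also carry a number shared by both libraries of a group, and its meaning is not stated. Whether both siCBX3 libraries received the same siRNA is therefore not known.

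Total counts per library lay between 36509298 and 40336907. CBX3 itself was counted 20311 and 21384 times with siNC but 2020 and 2163 times with siCBX3, a 9.15-fold lower level in CPM. Of 20999 genes tested, 48.4% were called at a Benjamini-Hochberg adjusted p under 0.05 (edgeR quasi-likelihood test), 24.4% higher and 24.0% lower in siCBX3, and 6.41% were called higher with a log2 fold change of at least 1. Among markers of the labelled cell type, 4 of 6 tested mesenchymal and osteoblast genes rose and 0 fell by edgeR, also at an unadjusted p under 0.05. VIM, of the mesenchymal cytoskeleton, went from 127 and 153 to 265 and 270.5 RPKM (reads per kilobase of exon, scaled to the library's read total; log2 change 1.01). SPARC, a collagen-binding matrix protein of bone, went from 74.7 and 61.5 to 356 and 341 RPKM (2.43, edgeR adjusted p 1.11e-16). The 8 listed genes summed to 205 and 218 RPKM in siNC and 625 and 615 in siCBX3, nearly all of it from VIM and SPARC. Both genes moved with the integrin chains, and their part in the rise of those chains was not tested. The other tested genes of the list had log2 changes from 0.24 (COL1A2) to 0.55 (BGLAP), neither of which was called. RUNX2, the osteoblast master regulator, stood at 0.55 to 0.72 RPKM, and the mature osteoblast genes ALPL and SP7 had 0 to 4 counts. The call of RUNX2 was lost in 11 of 13 alternative fits. Of the 6 tested genes, 3 rose with DESeq2 and 2 on RPKM. Summed levels of the other marker lists stayed low in all libraries: 1.55 to 1.84 RPKM for 7 leukocyte genes, 1.51 to 1.76 for 6 endothelial genes and 1.40 to 2.38 for 5 platelet genes. The 6 epithelial genes summed to 7.69 and 7.94 in siNC and 5.40 and 6.04 in siCBX3, with EPCAM the main contributor and CDH1 at 4 to 8 counts. In these 4 lists the genes called were EPCAM, lower, and ITGB2, higher. In bulk RNA, more expressing cells and more RNA per cell cannot be told apart.

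The 4 collagen-binding chains bind through the metal site of their I domain, which holds the magnesium ion that coordinates collagen. Its coding bases are shown to compare the 4 chains at this site. They were found by searching the longest open reading frame of each chain in GENCODE 29 for aspartate, any residue, then serine, asparagine and serine. Each run of 39 bases reads 5′ to 3′, with the codons of the search in capitals.
ITGA1: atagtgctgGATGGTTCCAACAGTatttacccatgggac
ITGA2: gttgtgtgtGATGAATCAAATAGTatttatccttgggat
ITGA10: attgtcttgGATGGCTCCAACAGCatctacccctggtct
ITGA11: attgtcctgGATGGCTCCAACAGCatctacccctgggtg
The capitals begin at codon 178 of ITGA1, 180 of ITGA2, 173 of ITGA10 and 170 of ITGA11, counted from the start codon. Against ITGA1, 27 of 39 bases were the same in ITGA2, 29 in ITGA10 and 31 in ITGA11. The same search found no match in the other 6 members. Among the 16 remaining chains it matched only ITGB4, a laminin-binding beta chain, at codon 137, where 17 of 39 bases equalled those of ITGA1. The search requires asparagine between the serines, as in the 4 chains, so a metal site with another residue there would be missed. No match therefore does not show that a chain lacks such a site.

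All 4 collagen-binding chains rose in siCBX3, by 2.28-fold to 7.74-fold, and in each the siNC and siCBX3 libraries did not overlap. Such separation in the higher direction was found in 36.4% of all genes tested. ITGA11 encodes alpha-11, the main receptor for fibrillar collagen on fibroblasts. The control libraries held 433 and 417 reads of it and the knockdown libraries 3024 and 3020. Libraries of a group were close, and the level went from 10.7 ± 1.13 CPM (TMM-scaled counts relative to the library total, mean ± SD, n = 2 per group) to 82.7 ± 4.32. On the log2 scale this rise was 2.95 with an SE of 0.10 (edgeR adjusted p 7.29e-18).

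ITGA1 encodes alpha-1, which prefers the network-forming collagen IV of basement membranes. Its counts were 1476 and 1555 in the control libraries and 7306 and 7471 in the knockdown libraries. The 2 values of each group lay close together and far from the other group. The level rose from 38.0 ± 1.60 CPM to 202 ± 7.17, a log2 change of 2.41 with an SE of 0.08 (edgeR adjusted p 8.81e-18). The gene shares 475 of its 18566 exon bases with PELO, a ribosome rescue factor gene on the same strand whose start lies 0.044 kb away. PELO itself was counted 671 and 837 times in the controls and 1316 and 1251 times after knockdown, less than the difference seen in ITGA1.

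ITGA10, the gene of the cartilage-type chain alpha-10, had the fewest counts of the 4 in each library, though in siNC its RPKM overlapped that of ITGA11. Counts of 196 and 318 in the controls stood against 849 and 923 after knockdown, or 6.38 ± 1.66 against 24.2 ± 0.190 CPM. The log2 change was 1.92 with an SE of 0.13 (edgeR adjusted p 1.24e-11). Its siNC libraries differed most among the 4 chains. Without siNC replicate 1 the log2 fold change was 1.68, and without siNC replicate 2 it was 2.22.

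ITGA2 encodes alpha-2, the collagen receptor of platelets and epithelia, and led the 4 in RPKM in every library. It was counted 6409 and 6423 times in the controls and 12468 and 14447 times after knockdown, with more spread in the latter. Its rise from 161 ± 12.5 CPM to 367 ± 19.4 was the smallest of the 4 as a ratio, a log2 change of 1.19 with an SE of 0.08 (edgeR adjusted p 4.75e-12). As a difference in mean RPKM it was the largest: ITGA2 rose by 24.3 and the other 3 chains together by 17.6.

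**Figure D1:**
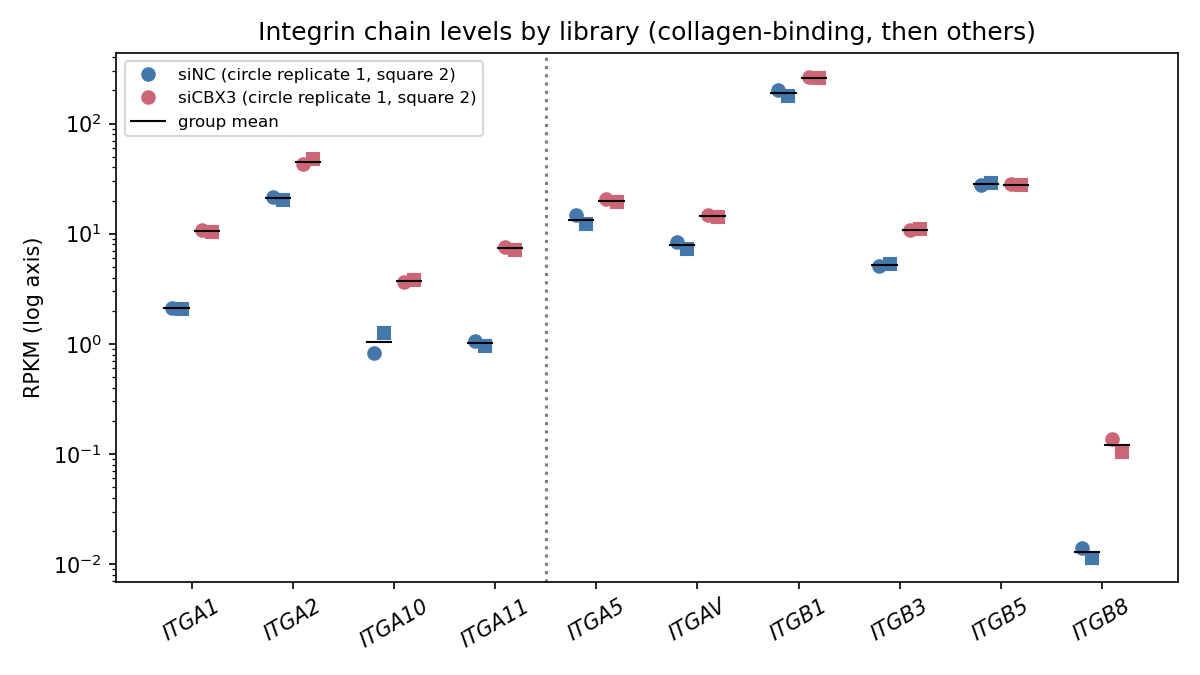
Level of each of the 10 integrin chains in each library, in RPKM on a log axis, with the collagen-binding chains left of the dotted line. Points are libraries (circle replicate 1, square replicate 2) and lines are group means. The siCBX3 points lie above the siNC points for every chain except ITGB5.

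Of the other 6 members, 5 rose and ITGB5 did not pass the test. Beta-1, encoded by ITGB1, is the partner of all 4 collagen-binding chains and of alpha-5. It was the member with the highest RPKM, and its counts were 44904 and 42774 in control and 57971 and 60058 in knockdown libraries. The 1.46-fold rise took it from 1104 ± 125 CPM to 1615 ± 42.4, a log2 change of 0.55 with an SE of 0.08 (edgeR adjusted p 3.77e-06). ITGA5, whose product with beta-1 is the classical fibronectin receptor, was counted 4164 and 3721 times in the controls and 5728 and 5651 times after knockdown. It rose 1.57-fold, with an edgeR adjusted p of 1.47e-06 (log2 change 0.65, SE 0.09). For both genes the lower siCBX3 library still exceeded the higher siNC library.

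ITGAV encodes alpha-V, which pairs with beta-1, beta-3, beta-5, beta-6 and beta-8. Control counts of 2597 and 2397 stood well under knockdown counts of 4433 and 4508, a 1.94-fold rise with an edgeR adjusted p of 1.63e-09 (log2 change 0.96, SE 0.09). Its beta partners moved to unequal extents. ITGB3, the beta chain of the vitronectin receptor, gave 838 and 933 counts in the controls and 1719 and 1861 after knockdown. This was a 2.20-fold rise with separate groups and an edgeR adjusted p of 7.89e-11 (log2 change 1.14, SE 0.09). ITGB3 shares 51.6% of its exon bases with RP11-290H9.2, a gene model on the same strand counted 401 and 456 times in control and 809 and 893 times in knockdown libraries, so their reads cannot be told apart.

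ITGB5, whose product with alpha-V also binds vitronectin, was counted 6695 and 7456 times in the controls and 6643 and 6877 times after knockdown. The groups overlapped in counts but not in CPM, at 177.7 and 177.0 in siNC against 188.4 and 181.4 in siCBX3. The scaled level was 177 ± 0.494 CPM against 185 ± 4.95, a log2 change of 0.06 with an SE of 0.07 (edgeR adjusted p 0.518). The sign of this value turned to -0.02 with library totals in place of TMM factors and on RPKM. ITGB8, which with alpha-V releases TGF-beta from its latent complex, had only 8 and 7 counts in the controls, against 75 and 61 after knockdown. Its fitted log2 change was 3.29, with the widest SE of the 10, 0.41, and an edgeR adjusted p of 3.75e-07. On log2 RPKM plus 0.1 the change was 0.96 and on RPKM plus 1 it was 0.14, both below those of all 4 collagen-binding chains. ITGB8 passed the count filter only through its siCBX3 libraries, and at 0.120 RPKM in siCBX3 it was still the rarest member.

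In all, 9 of 10 members rose, against 24.4% of tested genes, and 0 fell by edgeR, DESeq2 or limma, nor at an unadjusted p under 0.05. By the stricter rule of a called rise of at least 2-fold there were 6 of 10, against 6.41% of tested genes. These were the 4 collagen-binding chains, ITGB3 and ITGB8. Without ITGB8, which had to be high in siCBX3 to be tested, 8 of 9 rose, 5 of them at least 2-fold. On log2 RPKM plus 1, which shrinks low genes, the count was 4, and without siNC replicate 1 or siCBX3 replicate 2 it was 7. The median log2 fold change was 2.16 over the collagen-binding chains and 0.80 over the other members, beside -0.01 over all genes tested. The ranges overlapped: 1.19 to 2.95 in the collagen-binding chains and 0.06 to 3.29 in the others, where ITGB8 held the top. Without ITGB8 the others had a median of 0.65 and a highest value of 1.14. ITGA2 (1.19) and ITGB3 (1.14) differed by less than either SE. The difference between the 2 groups of chains was not tested, since the members were chosen with the results known.

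**Figure D2:**
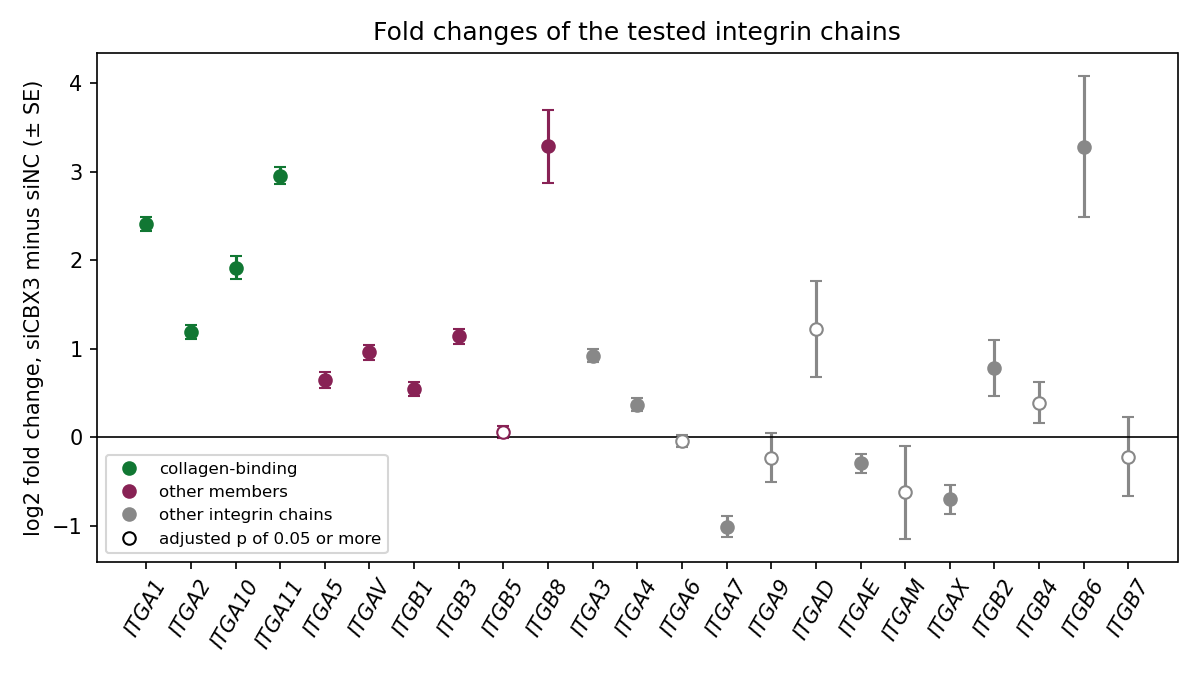
Log2 fold change (siCBX3 minus siNC, edgeR) of the 23 integrin chains tested, with bars of 1 SE. Filled points had an adjusted p under 0.05, and colours mark the collagen-binding chains, the other members and the rest of the family. The collagen-binding chains all lie above 1, and the wide bars of ITGB8 and ITGB6 go with few counts.

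Levels can be compared between genes only per length. In siNC the order of mean RPKM was ITGB1 (188 ± 16.8), ITGB5 (28.2 ± 0.597), ITGA2 (20.9 ± 1.12), ITGA5 (13.5 ± 1.80), ITGAV (7.86 ± 0.875), ITGB3 (5.19 ± 0.109), ITGA1 (2.10 ± 0.0381), ITGA10 (1.04 ± 0.294), ITGA11 (1.01 ± 0.0823) and ITGB8 (0.0128 ± 0.00191; SD, n = 2). ITGA10 and ITGA11 overlapped in siNC, and every other neighbouring pair was separated in both libraries. In siCBX3 the order was ITGB1 (261 ± 4.31), ITGA2 (45.2 ± 2.83), ITGB5 (27.9 ± 0.475), ITGA5 (20.0 ± 1.02), ITGAV (14.5 ± 0.430), ITGB3 (10.8 ± 0.158), ITGA1 (10.6 ± 0.272), ITGA11 (7.40 ± 0.314), ITGA10 (3.73 ± 0.0655) and ITGB8 (0.120 ± 0.0223). ITGA2 and ITGB5 exchanged places between the groups, and ITGA1 reached the range of ITGB3. ITGA1's length counts 18566 exon bases, the most of any member, which lowers its RPKM if shorter transcripts are used.

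The beta-1 subunit can pair with 12 alpha chains, ITGA1 to ITGA11 and ITGAV, so the make-up of these chains was read on the RPKM scale. The collagen-binding chains held 23.2% and 22.5% of their summed RPKM in siNC and 37.0% and 38.2% in siCBX3. The groups were well apart, by 14.8 percentage points on the mean with an SD of at most 0.90 within a group. ITGA2 held 19.1% in siNC and 25.4% in siCBX3, ITGA1 1.92% and 5.95%, ITGA11 0.92% and 4.16%, and ITGA10 0.95% and 2.10%. ITGA6, a laminin-binding chain, went from the largest share in siNC (24.4%) to 13.9%, although its own level did not pass the test. The fibronectin receptor chain ITGA5 held 12.3% and 11.2%. Within the collagen-binding chains, ITGA2 made up 83.4% of the summed RPKM in siNC and 67.5% in siCBX3. ITGB1 exceeded the 12 alpha chains together in each library, at 1.81 and 1.63 times their sum in siNC and 1.5 and 1.44 times in siCBX3. These are shares of RNA, and protein or surface amounts were not measured.

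**Figure D3:**
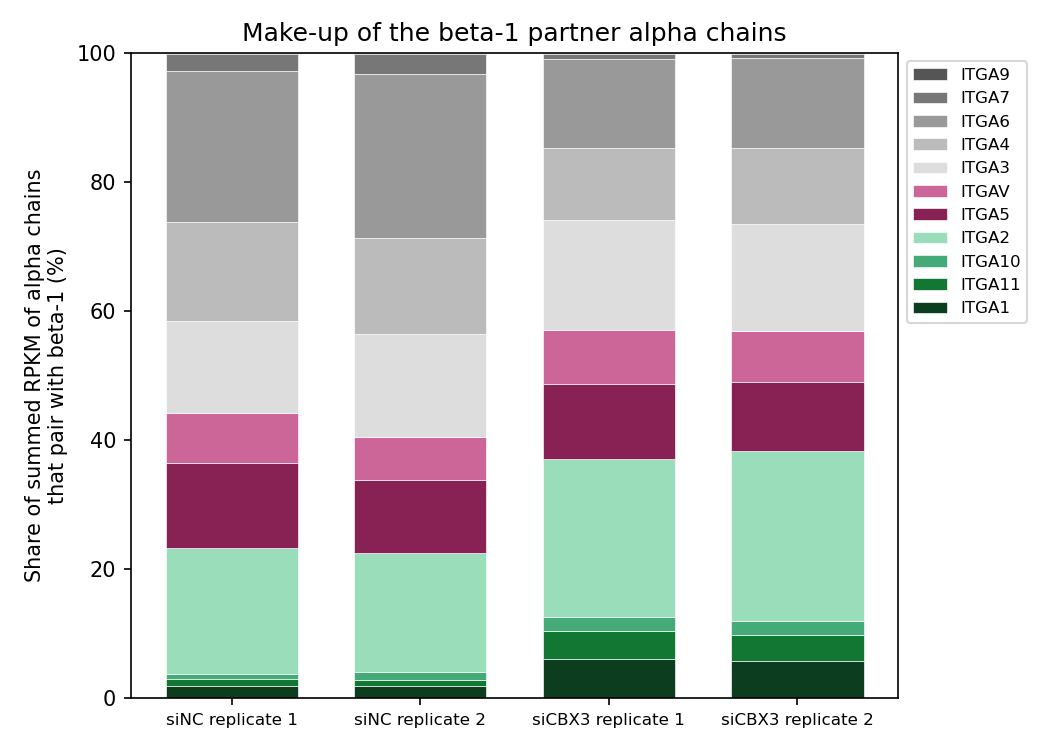
Share of each alpha chain in the summed RPKM of the alpha chains that pair with beta-1, in percent, with a bar for each library. Greens are the collagen-binding chains, purples ITGA5 and ITGAV, and greys the other chains, without ITGA8 (0 to 2 counts). The green part takes 22.5% to 23.2% in siNC and 37.0% to 38.2% in siCBX3.

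For alpha-V, ITGB5 and ITGB3 were each set against ITGAV on the same scale. ITGB1, also a partner of alpha-V, was not included, so the balance among all its beta partners is not shown. ITGB5 stood at 3.28 and 3.96 times the RPKM of ITGAV in siNC and at 1.91 and 1.94 times in siCBX3. ITGB3 stood at 0.60 and 0.73 times in siNC and 0.72 and 0.77 times in siCBX3, so its groups overlapped. Of the 2 genes in the first ratio, ITGAV rose and ITGB5 did not pass the test.

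Of the 16 other chains of the integrin family 13 were tested, of which 4 rose, 3 fell and 6 did not pass, with a median log2 fold change of -0.04. These shares, 30.8% higher and 23.1% lower, lay near the 24.4% and 24.0% of all genes tested. ITGA3 (0.92), a laminin-binding chain, and ITGA4 (0.37), which binds fibronectin and VCAM1, rose. ITGB2 (0.78), the leukocyte beta chain, was also called, at 36 and 31 counts against 52 and 54, but this call was lost in 8 of 12 alternatives, DESeq2 among them. ITGB6, an epithelial partner of alpha-V that activates TGF-beta, was called on 4 and 0 counts against 19 and 19. It passed the filter only through siCBX3. ITGA7 (-1.01), a laminin-binding chain of muscle, ITGAX (-0.70) and ITGAE (-0.29), leukocyte chains, fell. The call of ITGAE was lost in 7 of 13 alternatives: DESeq2, no filter, RPKM plus 1 or plus 0.1, and leaving out siNC replicate 2, siCBX3 replicate 1 or siCBX3 replicate 2. The chains with an I domain outside the 4 collagen-binding members were ITGAD, ITGAE, ITGAL, ITGAM and ITGAX. ITGAE and ITGAX were the ones called, both lower, and ITGAD had a log2 change of 1.23 with an SE of 0.54 (edgeR adjusted p 0.0648). ITGA6 (-0.04), ITGA9 (-0.23), ITGAM (-0.62), ITGB4 (0.39) and ITGB7 (-0.22) did not pass either. ITGA8, ITGA2B and ITGAL had 0 to 8 counts and were not tested.

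Collagens are the ligands of the collagen-binding chains, and most of those listed were higher. The list held 21 chains that form fibrils, networks or beaded filaments, or span the membrane. It is a selection and does not hold every chain of these kinds. Of the 21, 14 rose and 2 fell (66.7% and 9.52%, against 24.4% and 24.0% of all genes tested), with a median of 0.67. COL5A1, a chain of fibril-nucleating collagen V, went from 3.79 and 3.81 to 26.0 and 24.4 RPKM (log2 fold change 2.81), and its partner COL5A2 from 17.8 and 22.9 to 95.0 and 93.8 (2.29). COL4A1, of basement membranes, went from 46.5 and 51.6 to 213 and 210.0 RPKM (2.19), and COL6A3, of microfibrils, from 37.9 and 45.5 to 159 and 157 (2.00). The collagen I genes were low and moved little. COL1A1 had a log2 change of 0.44 and passed the test, though not on RPKM, while COL1A2 had 0.24 (edgeR adjusted p 0.113) and stood at 0.80 to 0.92 RPKM. COL2A1 (-1.94) and COL4A4 (-1.55), at 32 counts or fewer, fell. Neither call held with DESeq2, on RPKM, without siNC replicate 2 or without siCBX3 replicate 2. That of COL2A1 was lost without any 1 of the libraries, and this gene passed the filter only through siNC.

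Of 18 listed ligands of the alpha-V and alpha-5 receptors 16 were tested, 7 rose and 5 fell, with a median of 0.17. Beside the 24.4% higher and 24.0% lower of all genes tested, these were 43.8% and 31.2%. Fibronectin, FN1, went from 14.1 and 14.6 to 233 and 228 RPKM (log2 fold change 4.08). Osteopontin, SPP1 (2.82), TGFBI (1.79) and tenascin-C, TNC (1.36), also rose. CYR61 (-1.12) and CTGF (-0.78), matricellular ligands and YAP targets, fell, as did FBN1 (-0.66), NPNT (-1.21) and TGFB3 (-1.27). VTN, the gene of vitronectin, had 2 to 6 counts and was not tested. The list of latent TGF-beta genes, 3 of which are also in the ligand list, held 6 that rose and 3 that fell among 9, or 66.7% and 33.3% against 24.4% and 24.0% of all genes tested. LRRC32, which anchors latent TGF-beta at the cell surface, was counted 14 and 19 times in the controls and 151 and 112 times after knockdown (3.12). LTBP1 (1.13), TGFB1 (0.86) and LTBP3 (0.71) rose as well. Without siCBX3 replicate 2, and with DESeq2, 1 of the 9 fell.

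Among other matrix receptors 5 of 7 tested rose (71.4%, against 24.4% of all genes tested) and 0 fell, by edgeR and by DESeq2, also at an unadjusted edgeR p under 0.05. The collagen-activated kinase gene DDR1 went from 2.04 and 2.13 to 7.54 and 7.23 RPKM (log2 fold change 1.90). MRC2 (1.15), an endocytic collagen receptor, the syndecan SDC4 (1.13) and the kinase DDR2 (0.57) rose. CD44, the hyaluronan receptor, had -0.03 and did not pass.

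Of 29 intracellular adaptors tested 14 rose and 8 fell, with a median of 0.23, and on RPKM or with library totals 10 rose and 8 fell. The share that rose was 48.3% and the share that fell 27.6%, the latter near the 24.0% of all genes tested. TNS3 (1.43) rose and TNS1 (-2.17) fell, both tensins that bind beta-chain tails. The talin gene TLN2 (-1.09) fell while TLN1 (0.50), the more abundant form, rose. FLNC (-1.23), an actin crosslinker, fell, as did vinculin, VCL (-0.94). Of 24 signalling genes 7 rose and 10 fell, with a median of -0.11, and on RPKM 4 rose and 10 fell. In the main fit the 29.2% that rose lay near the 24.4% of all genes tested, and 41.7% fell against 24.0%. The background differed by setting: of 20999 genes tested, 3584 rose and 5013 fell on RPKM plus 1. With library totals 4243 rose and 5917 fell. GIT1 (-1.26), CRKL (-1.19) and RAP1B (-0.79) fell, and DOCK1 (0.83), an activator of RAC1, rose. The integrin-linked kinase gene ILK (0.41) rose. The focal adhesion kinase gene PTK2 (0.25) was called, but not with library totals, on RPKM, or without siCBX3 replicate 1 or replicate 2.

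**Figure D4:**
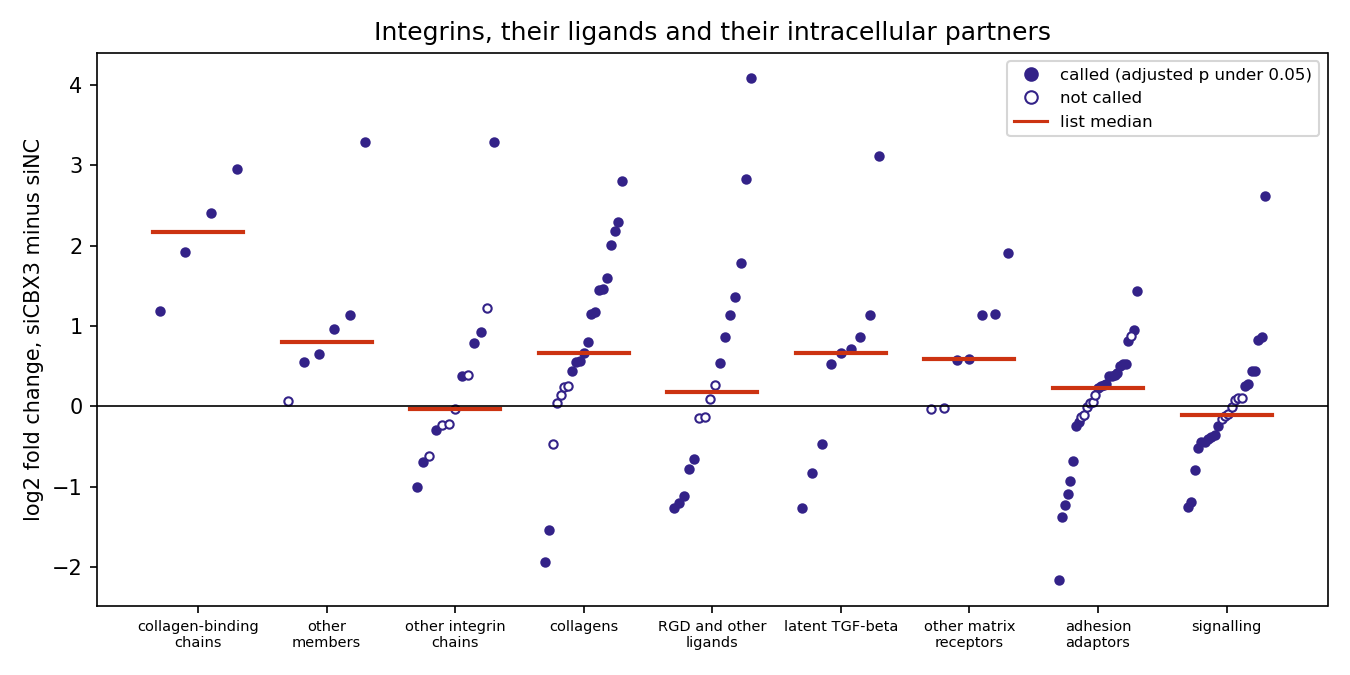
Log2 fold change (siCBX3 minus siNC, edgeR) of every tested gene in 9 lists, with a point for each gene and a red line at each list median. Filled points had an adjusted p under 0.05. Medians run from 2.16 in the collagen-binding chains to -0.11 in the signalling list, and some genes stand in more than 1 list.

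Promoter windows of the collagen-binding chains are shown because these genes rose together. RefSeq promoters (GRCh38.p14, 250 bases before to 50 after the start) matched 9 of the 10 members. The 100 bases before each start are printed on the gene's own strand, with letters of the motifs searched in capitals.
ITGA1, chr5:52787816-52787915, plus strand: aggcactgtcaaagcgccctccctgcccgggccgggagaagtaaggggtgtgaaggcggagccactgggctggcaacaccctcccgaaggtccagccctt
ITGA2, chr5:52989252-52989351, plus strand: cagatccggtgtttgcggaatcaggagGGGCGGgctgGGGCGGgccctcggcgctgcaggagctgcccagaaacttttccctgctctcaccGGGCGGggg
ITGA10, chr1:145910051-145910150, minus strand: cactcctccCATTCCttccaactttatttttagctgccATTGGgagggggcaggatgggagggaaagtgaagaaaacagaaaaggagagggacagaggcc
ITGA11, chr15:68432164-68432263, minus strand: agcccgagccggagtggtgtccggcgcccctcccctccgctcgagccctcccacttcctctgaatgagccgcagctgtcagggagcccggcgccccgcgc
The motifs, read on both strands, were AP-1 (TGANTCA, in 7.71% of 35116 promoter windows), TEAD (GGAATG, 14.0%), the GC box (GGGCGG, 45.0%), the CCAAT box (CCAAT, 34.6%) and the TATA box (TATAAA, 11.5%). No motif was common to the 4 windows. ITGA2 held 4 GC boxes in its full window, ITGA10 a TEAD and a CCAAT match, and ITGA1 and ITGA11 none of the 5. Their CpG counts were 19 in ITGA1, 27 in ITGA2, 29 in ITGA11 and 2 in ITGA10, against a median of 14 over all windows. Of the members outside the group, ITGA5 held an AP-1 match beginning 6 bases before its start, a TEAD match and a GC box. ITGB1 held a TEAD match and 3 GC boxes in the first of its 2 windows, and CCAAT and TATA matches in the second. ITGAV held none of the 5 in either of its windows. ITGB8 held 2 GC boxes and a CCAAT match, and ITGB5, which did not pass the test, held GC boxes in each of its 3 windows. A match is a run of letters and does not show binding.

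The members sit in different surroundings. ITGA1 (chromosome 5, 52787896 to 52959210, plus strand, GRCh38) and ITGA2 (52989326 to 53094779, plus strand) are neighbours, whereas ITGA10 lies on chromosome 1 (145891208 to 145910189, minus strand) and ITGA11 on chromosome 15 (68296533 to 68432162, minus strand). Of the others, ITGA5 lies on chromosome 12 (54395261 to 54419460, minus), ITGAV on 2 (186590065 to 186680901, plus), ITGB1 on 10 (32900319 to 33005792, minus), ITGB3 on 17 (47253846 to 47311816, plus), ITGB5 on 3 (124761948 to 124901418, minus) and ITGB8 on 7 (20330702 to 20415754, plus). ITGA10 had 15 tested genes that start within 100 kb and share no exon bases with it, of which 9 fell and 6 did not pass, with a median of -0.31. They included ANKRD35 (-2.14), with 4 to 36 counts, and RBM8A (-0.31), a core factor of the exon junction complex. RBM8A, CH17-270A2.2 (-0.30) and RP11-315I20.1 (-0.35) start 17.5, 17.1 and 16.4 kb away with near-parallel counts. They may not be independent values, and whether they share reads was not tested. ITGA1, ITGA11, ITGAV, ITGB1, ITGB5 and ITGB8 had no such tested neighbour. Near ITGB3, CDC27 (-1.45), a subunit of the anaphase-promoting complex, and RP5-867C24.5 (-1.71) fell, and EFCAB13 (0.77) rose. Around all 10 members 2 of 22 tested neighbours rose and 11 fell (9.09% and 50%, against 24.4% and 24.0% of all genes tested). Of those that fell, 9 lay near ITGA10. CTD-2207L17.1, a riser counted beside ITGA2, lies wholly within exon bases of ITGA1 and is no independent value.

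By the distance between mean-centred log2 CPM over the 4 libraries, the genes most like the average of the 4 collagen-binding chains, of 13943 with a mean of at least 100 counts, were GLIS3 (root mean square distance 0.026), TPM4 (0.0341) and COL4A1 (0.045). GLIS3 encodes a zinc finger transcription factor and TPM4 a tropomyosin of the actin cytoskeleton. Their log2 fold changes were 2.18, 2.09 and 2.19. Over 4 libraries in 2 groups this measure largely ranks genes by the size of their change.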

How the data were processed

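Messenger RNA libraries of 143B cells, 2 siNC and 2 siCBX3, were sequenced, and the authors deposited raw read counts and RPKM values per gene, with each library in a column of its own per the file headers. Trimmomatic 0.36, STAR 2.5.3a, featureCounts, Subread 1.5.1 and GRCh38 are named, per the submitters' processing notes. Strand and shared-read settings are not given in the sources used here. Reads of overlapping genes may therefore be shared, and exon overlap was computed from the exon coordinates of the deposited table. The deposited RPKM values equalled counts divided by length and total, within a relative error of 3.79e-07. Of counts from 1 to 10, 76.5% to 77.3% were even, so reads are not independent molecules and low counts are less precise than their size implies. Libraries of a group differed by more than sampling noise (chi-square over its degrees of freedom: siNC 12.0, siCBX3 6.99).

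Counts were fitted in R 4.3.3 with edgeR 4.0.16: filterByExpr (minimum count 10, minimum total 15), TMM factors, and quasi-likelihood F tests of the group term over 20999 genes. Log2 fold changes are siCBX3 minus siNC, and SE is the fold change over the root of F. The fit had 2 residual degrees of freedom per gene and a median of 21.97 prior degrees of freedom. Each p-value and SE therefore rests mostly on spread borrowed from other genes. Alternatives used DESeq2 1.42.0 and limma 3.58.1. On data simulated for this comparison over 20518 genes, the fit recovered 13 of 50 genes changed 1.25-fold, 25 of 50 at 1.5-fold, 30 of 50 at 2-fold and 42 of 50 at 4-fold, with 4 false calls among 114. Only these genes were changed, far fewer than the 10173 called in the data, so recovery there may differ. Tables were handled with pandas 2.3.3 and numpy 2.4.6 in Python 3.11.15, and figures drawn with matplotlib 3.10.9.

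The members and gene lists were chosen with earlier results of these data known. Named genes were the integrin family, CBX3, genes overlapping or within 100 kb of a member, up to 4 genes with the lowest adjusted p of each list (for lists of other cell types only called genes are named, beside sums), and the 3 genes of most like pattern. TLN1, VCL, ILK, PTK2, CD44, COL1A1, COL1A2, COL2A1, COL4A4, CYR61, CTGF, FBN1, NPNT, TGFB3, VTN, ALPL, SP7 and CDH1 were added after their values were seen.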

Additional observations from a re-analysis of the deposited data

How the results depend on the processing

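Over 13 alternatives each member kept its direction and its side of the threshold, except ITGB5, which was never called and turned to -0.0188 with library totals, -0.0179 on RPKM plus 1 and -0.0185 on RPKM plus 0.1. ITGB8 fell out where a mean count of 50 was required. On RPKM the median log2 fold change of the collagen-binding chains was 1.56 (plus 1) and 2.03 (plus 0.1), and that of the other members 0.51 (plus 1), since the added constant shrinks low genes. Leaving out a library gave 2.07 (siNC replicate 1) to 2.30 (siNC replicate 2) for the collagen-binding chains. The rise in their share of beta-1 partner RPKM, 14.8 percentage points, was 17.1 without length scaling and 16.3 without ITGAV. With the replicate number as a block 10630 genes were called against 10173, and no member's call changed. With only 2 pairs, deviations of same-numbered libraries correlated at 0.029, so the numbers were not taken as pairs. Library totals gave 4243 genes higher and 5917 lower, against 5132 and 5041. Depth limits ITGB8 and ITGB6, with single-digit siNC counts.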
